A study of Mus musculus with 48 samples.

Results

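The comparison asked which genes differ in brown fat when cystathionine gamma-lyase is missing while the diet still supplies cystine. Brown adipose tissue (BAT) of male mice labelled as homozygous for loss of its gene (Cth-/-) was set against BAT of male mice labelled Cth+/+, both on the control diet (CTRL) for 6 days. The members are the 4 Cth-/- libraries with the numbers 12, 13, 14 and 15 and the 4 Cth+/+ libraries with the numbers 1, 2, 3 and 4, which make 8 of the 48 poly(A) RNA libraries of the study. The other 40 libraries came from the same genotypes on a diet lacking cystine (CysF), and from subcutaneous (SFAT) and visceral (EFAT) white fat. The labels name neither the strain, the age and the Cth allele nor the hour of tissue collection. The labels do not say that the libraries of a group came from separate animals, so p-values reflect only how these libraries vary, which may in part be technical.

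Cysteine reaches cells from the diet, mostly as its oxidized pair cystine, or is made from methionine by transsulfuration, whose last step is the work of cystathionine gamma-lyase. Cysteine is used for protein, glutathione, taurine, coenzyme A, iron-sulfur clusters and hydrogen sulfide. When amino acids run short, the kinase GCN2 raises translation of the transcription factor ATF4, which switches on amino acid transporters, tRNA synthetases and stress hormones. Brown fat burns fuel for heat through the uncoupling protein UCP1, and, as other tissues, it runs a circadian clock in which CLOCK and ARNTL drive the Per, Cry and Nr1d genes that repress them in turn.

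Total expected counts were 23093070 to 37345043 per library. Levels are given as CPM, read counts scaled to the TMM-adjusted library size, which are not divided by gene length and are therefore compared only within a gene. Single values are listed in the order of replicates 1, 2, 3 and 4 for Cth+/+ and 12, 13, 14 and 15 for Cth-/-, and changes are log2 fold changes of Cth-/- over Cth+/+ with their standard error (SE). Brown adipocyte markers were present in all 8 libraries: the summed level of the 13 markers was 8937 to 9815 CPM in Cth+/+ and 8652 to 10189 CPM in Cth-/-, and none of the 13 passed the test. Skeletal muscle markers varied most: the 20 markers summed to 634 to 2102 CPM in Cth+/+ and 156 to 1134 CPM in Cth-/-, with the lowest sum in Cth-/- replicate 14. Transcripts encoded by mitochondrial DNA took 23.3 to 35.9% of the counts in Cth+/+ and 24.7 to 45.7% in Cth-/-. Reads of the pseudogene Gm43512 split the libraries into a set A below 0.1 CPM (Cth+/+ replicates 3 and 4, Cth-/- replicates 13 and 15) and a set B above it (Cth+/+ replicates 1 and 2, Cth-/- replicates 12 and 14), so that each genotype had both sets. The set B libraries held 13, 29, 28 and 4 such reads in that order, with Cth-/- replicate 14 the lowest, and every set A library held 0. The labels do not give the origin of the sets. In the 16 BAT libraries 2929 of 14528 genes tested differed between the sets. They held 17 of the 305 genes called for genotype below. The genotype fit had no set term, so a set difference adds to the spread against which genotype is tested. The overlap therefore does not show whether the set bears on the genotype calls. Fewer cells of a type and less RNA per cell cannot be told apart in these bulk samples.

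Cth lies on chr3:157894248-157925077 of GRCm38 (minus strand). Its reads followed the genotype labels in all 8 libraries. The Cth+/+ libraries held 44, 17, 8 and 19 reads and the Cth-/- libraries 0, 1, 0 and 0. Relative to total reads this was a ratio of 105, with a 95% exact interval of 18.3 to 4179.6 that covers counting error only. The fitted change was -6.01 ± 0.80 on the log2 scale (adjusted p = 0.00466), a value that depends on the prior count because 3 libraries were at 0. The wild-type level was itself low, at 1.51, 0.744, 0.291 and 0.550 CPM.

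Of 14528 genes tested, 305 (2.10%) passed the edgeR quasi-likelihood test at a Benjamini-Hochberg adjusted p under 0.05. Cth-/- BAT had 188 genes higher (1.29%) and 117 lower (0.805%), and 93 of the 305 changed by more than 1 on the log2 scale (48 higher and 45 lower). The median of all genes tested was 0.01. In 295 of the 305 the libraries of the genotypes did not overlap, against 1811 of all genes tested (12.5%). The 305 were chosen by a test on these same libraries, so a lack of overlap, here or in single genes below, is no separate evidence. The number of calls depended on single libraries. It was 32, 70, 81 and 74 without Cth+/+ replicates 1, 2, 3 and 4, and 339, 44, 354 and 65 without Cth-/- replicates 12, 13, 14 and 15, and all of the 305 that could be tested kept their direction in each of these fits. With the library set as a term all 305 stayed among 741 calls (5.10%), of which 403 were higher (2.77%) and 338 lower (2.33%). The larger number of higher genes did not hold in every fit: 534 were higher and 561 lower within set A, and 15 and 17 without Cth+/+ replicate 1. Within set A 1095 genes passed (7.29%) and within set B 1 gene passed, Tnnt1 (0.00674%, and 1422 at an unadjusted p under 0.05). Of the 305 genes, 304 of 304 that could be tested had the same sign in set B. The 305 were called on all 8 libraries, those of set B among them. The directions kept in set B and without 1 library are therefore no separate test. In what follows the number of alternatives under which a gene kept its call is given out of 17: other scaling, filter, dispersion, tool, covariates and sample choices (9), and each library left out in turn (8). The 17 leave out the fits within set A and within set B and a test against a log2 threshold of 0.5. Of the calls that could be tested, these kept 213 of 305, 0 of 304 and 6 of 305. The 17 include the fit of only the 8 libraries with the set term and the fit without mitochondrially encoded genes. Both were chosen after seeing the data.

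**Figure D1:**
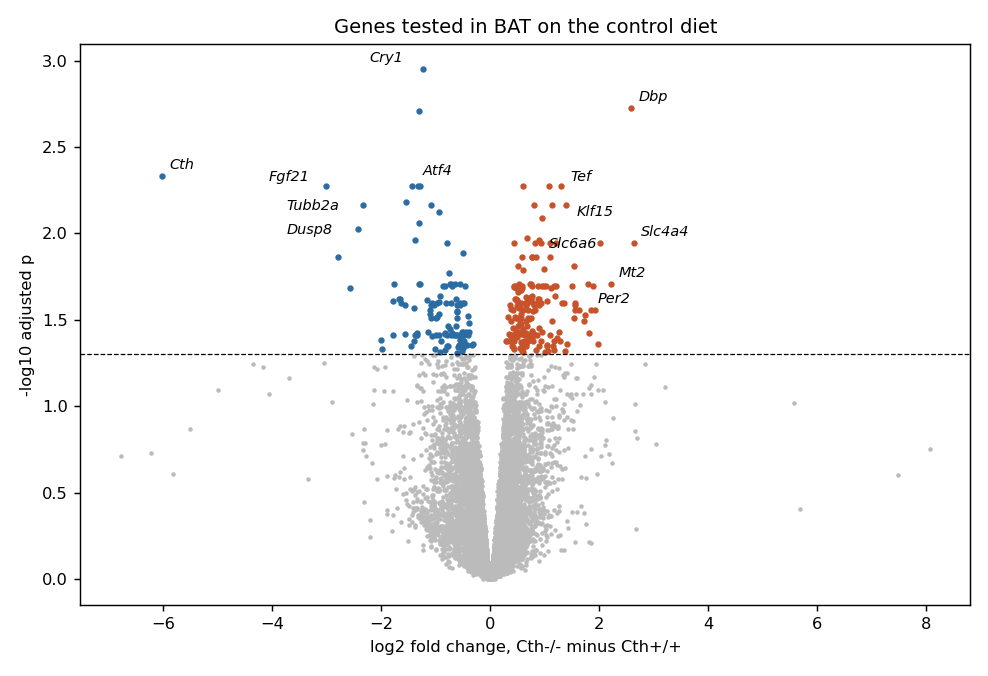
Each point is a gene tested in BAT on the control diet. The x axis is the log2 fold change of Cth-/- over Cth+/+ and the y axis the negative log10 of the adjusted p; orange points are the 188 genes higher and blue points the 117 genes lower past the dashed line at 0.05. Cth, Fgf21, Tubb2a and Dusp8 lie far to the left and Dbp, Slc4a4 and Mt2 far to the right.

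Genes of the circadian clock differed between the genotypes. Of 14 core clock genes tested, 4 rose (Per2, Per3, Nr1d1, Nr1d2) and 2 fell (Arntl, Cry1), and of 13 output genes 3 rose (Dbp, Tef, Usp2) and none fell, against 2.10% of all genes. The median change was -0.05 for the core list, whose members moved both ways, and 0.47 for the output list. The lists were drawn up with these results known, so their counts are a description. The hour at which each animal was sampled was not in the labels, so hour and genotype cannot be told apart in genes that cycle over the day.

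Dbp, a transcription factor that the clock drives directly, stood at 2.74, 6.00, 4.30 and 4.63 CPM in the Cth+/+ libraries and at 28.8, 25.2, 28.3 and 23.5 CPM in the Cth-/- libraries. Every Cth-/- library was above every Cth+/+ library, and the level was 6.00-fold higher (a log2 change of 2.58 ± 0.30, adjusted p = 0.00188). Tef, a close relative of Dbp that binds the same DNA element, rose from 23.7, 40.6, 40.4 and 41.1 CPM to 85.1, 98.3, 90.1 and 84.5 CPM (a log2 change of 1.30 ± 0.18, adjusted p = 0.00532). Cth+/+ replicate 1 was the lowest Tef library, well below the other 3 of its group, and the genotypes did not overlap. Usp2, a clock-driven deubiquitinase, was 2.49-fold higher (5.29 ± 0.493 against 13.2 ± 2.29 CPM, SD, n = 4 each; a log2 change of 1.32 ± 0.27, adjusted p = 0.0253).

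Among the repressors, Per2 rose from 1.34, 3.63, 4.08 and 4.69 CPM to 14.8, 12.6, 15.6 and 6.73 CPM (a log2 change of 1.84 ± 0.40, adjusted p = 0.0278). The lowest Cth-/- library, replicate 15, was close to the highest Cth+/+ library, replicate 4. Per3 rose from 5.48, 12.2, 13.3 and 10.8 CPM to 26.1, 29.9, 25.2 and 20.3 CPM (a log2 change of 1.28 ± 0.31, adjusted p = 0.0418), while Per1 was not separated (13.1 ± 8.00 against 17.2 ± 6.36 CPM, SD, n = 4; a log2 change of 0.39 ± 0.44, adjusted p = 0.679). Nr1d1 and Nr1d2 encode the REV-ERB receptors, which repress Arntl. Nr1d2 rose from 27.0, 35.2, 28.2 and 38.7 CPM to 65.4, 73.3, 62.0 and 71.6 CPM (a log2 change of 1.08 ± 0.16, adjusted p = 0.00532), and Nr1d1 rose from 76.9, 80.7, 52.5 and 50.7 CPM to 172, 105, 122 and 87.5 CPM (a log2 change of 0.90 ± 0.22, adjusted p = 0.0446). In both genes the genotypes were apart, with the gap in Nr1d1 the narrower, between 80.7 CPM in Cth+/+ replicate 2 and 87.5 CPM in Cth-/- replicate 15.

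The 2 core genes that fell, Arntl and Cry1, did so in every Cth-/- library. Arntl, the partner of CLOCK, stood at 13.8, 11.3, 10.3 and 8.82 CPM in Cth+/+ and 4.32, 4.82, 3.57 and 5.36 CPM in Cth-/- (a log2 change of -1.28 ± 0.24, adjusted p = 0.0195). Cry1, a repressor whose peak comes later than that of the Per genes, stood at 12.2, 10.6, 10.6 and 11.5 CPM in Cth+/+ and 3.82, 5.24, 4.80 and 5.32 CPM in Cth-/-, a 2.34-fold lower level with very little spread (a log2 change of -1.22 ± 0.13, adjusted p = 0.00113). No library of one genotype reached the other in either gene. Clock itself did not pass, at 64.9 ± 2.64 against 63.3 ± 3.62 CPM (a log2 change of -0.04 ± 0.12, adjusted p = 0.909), and nor did Rora (a log2 change of -0.12 ± 0.10, adjusted p = 0.579), whose product activates Arntl. Npas2, a paralog of Clock, did not pass either (a log2 change of -0.63 ± 0.32, adjusted p = 0.314).

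Dbp, Tef, Nr1d2 and Cry1 kept their calls under 17 of 17 alternatives, Arntl under 15 of 17, Usp2 and Per2 under 12 of 17, Per3 under 8 of 17 and Nr1d1 under 7 of 17. Arntl lost its call without Cth+/+ replicate 1 or Cth-/- replicate 13 (adjusted p up to 0.0640). Per2 (up to 0.0796) and Usp2 (up to 0.0830) lost theirs without any 1 Cth+/+ library or without Cth-/- replicate 13. Per3 (up to 0.123) and Nr1d1 (up to 0.118) lost theirs without any single library. Clock genes called numbered 2 to 4 in the core list and 2 to 3 in the output list when 1 library was left out.

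**Figure D2:**
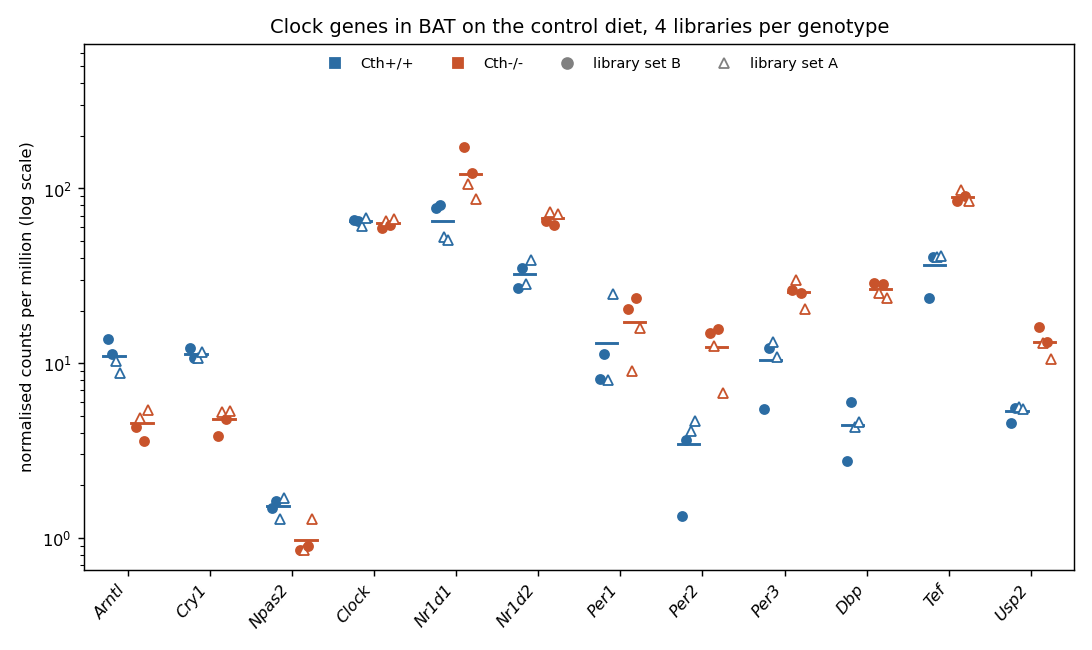
Levels of 12 clock genes in the 8 BAT libraries, as TMM-scaled CPM on a log axis, with Cth+/+ in blue and Cth-/- in orange; filled circles are library set B, open triangles set A, and horizontal bars are group means. Arntl and Cry1 lie lower and Nr1d2, Per2, Per3, Dbp, Tef and Usp2 higher in Cth-/- without overlap, in both sets, while Clock and Per1 overlap.

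The start sites of these genes were read for the elements that clock factors bind. The E-box CACGTG is bound by CLOCK and ARNTL, and the D-box, searched as TTATGTAA or TTACGTAA, by DBP and TEF. Each RefSeq window (GRCm38.p6) ran from 250 bases before to 50 bases after a start, and both strands were searched. Of the 9 clock genes called, 8 were in the table with 10 windows. An E-box was in 3 of these windows (Tef and Cry1) and a D-box in 1 (Per3), against 7.15 and 1.06% of all 32851 windows and 9.60 and 0.709% of the windows of tested genes. Over all genes called, an E-box was in the windows of 9.77% of the higher and 16.3% of the lower genes in the table, against 11.5% of the tested genes there. The stretches shown hold these elements in capitals, 5′ to 3′ on the strand of the gene, and positions count back from the start. They are chr15:81802516-81802581, plus strand, with the E-box of Tef from -127, chr10:85185079-85185144, minus strand, with the E-box of Cry1 from -60, and chr4:151044786-151044900, minus strand, with the D-boxes of Per3 from -205 and -158.
Tef: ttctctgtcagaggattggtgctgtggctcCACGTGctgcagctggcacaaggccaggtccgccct
Cry1: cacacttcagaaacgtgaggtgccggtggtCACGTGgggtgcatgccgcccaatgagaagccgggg
Per3: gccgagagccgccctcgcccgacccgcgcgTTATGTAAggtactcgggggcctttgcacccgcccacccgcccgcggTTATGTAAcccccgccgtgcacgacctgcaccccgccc
Both Tef, which rose, and Cry1, which fell, hold the same E-box. A match describes letters in this window and says nothing about binding in these libraries.

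Part of the integrated stress response list fell. Of 40 tested members of this ATF4 list, 6 fell (Fgf21, Gdf15, Trib3, Atf4, Slc7a1, Cars) and none rose, against 0.805% of all genes lower. The list's median was -0.20, with 32 members below 0 and 8 above it, against a median of 0.01 over all genes. With 1 library left out the list held 2 to 7 calls.

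Atf4, the transcription factor at the centre of the response, stood at 121, 137, 123 and 115 CPM in Cth+/+ and 39.8, 48.2, 56.2 and 57.8 CPM in Cth-/-. The groups were far apart and the level was 2.45-fold lower (a log2 change of -1.29 ± 0.18, adjusted p = 0.00532). Fgf21, a hormone gene that ATF4 induces, stood at 1.75, 2.76, 2.18 and 1.97 CPM and 0.352, 0.331, 0.335 and 0.0913 CPM in the same order, 8.04-fold lower (a log2 change of -3.01 ± 0.43, adjusted p = 0.00532). Cth-/- replicate 15 was the lowest Fgf21 library, below the other 3 of its group. Gdf15, a stress cytokine that acts on appetite, was low in every library, at 0.411, 0.832, 0.728 and 0.521 CPM in Cth+/+ and 0, 0.110, 0.149 and 0.114 CPM in Cth-/-, with 1 library at 0 (a log2 change of -2.58 ± 0.50, adjusted p = 0.0207).

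Trib3, a pseudokinase that feeds back on ATF4, fell from 8.50, 5.12, 5.13 and 5.44 CPM to 1.81, 2.65, 2.57 and 2.10 CPM (a log2 change of -1.40 ± 0.30, adjusted p = 0.0271), and Cth+/+ replicate 1 was well above the rest of its group. Slc7a1, a transporter of cationic amino acids, fell from 7.75, 7.84, 3.90 and 5.73 CPM to 3.92, 2.51, 4.43 and 2.60 CPM (a log2 change of -0.92 ± 0.23, adjusted p = 0.0484), and its groups overlapped, since Cth+/+ replicate 3 was below Cth-/- replicates 12 and 14. Cars, which encodes the synthetase that charges tRNA with cysteine, fell from 22.8 ± 4.95 to 13.8 ± 3.70 CPM (SD, n = 4; a log2 change of -0.73 ± 0.17, adjusted p = 0.0357). In Cars no library of one genotype reached the other. Asns, asparagine synthetase, was at 52.5 ± 10.9 and 50.8 ± 18.0 CPM (a log2 change of -0.05 ± 0.24, adjusted p = 0.933), and Chac1, which degrades glutathione, at 1.08 ± 0.532 and 0.588 ± 0.0855 CPM (a log2 change of -0.88 ± 0.33, adjusted p = 0.177).

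Atf4 and Fgf21 kept their calls under 17 of 17 alternatives, Gdf15 under 11 of 16, Trib3 under 11 of 17, and Slc7a1 and Cars under 9 of 17. Leaving out Cth+/+ replicate 1 or 2 or Cth-/- replicate 13 or 15 ended the calls of Gdf15 (adjusted p up to 0.0764), Trib3 (up to 0.0995), Slc7a1 (up to 0.159) and Cars (up to 0.119). Leaving out Cth+/+ replicate 3 ended those of Gdf15, Trib3 and Cars, leaving out Cth+/+ replicate 4 those of Trib3, Slc7a1 and Cars, and leaving out Cth-/- replicate 12 that of Slc7a1. With the library set as a term 9 members fell (against 2.33% of all genes) and none rose, adding Aars, Ddit3 and Ppp1r15a.

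**Figure D3:**
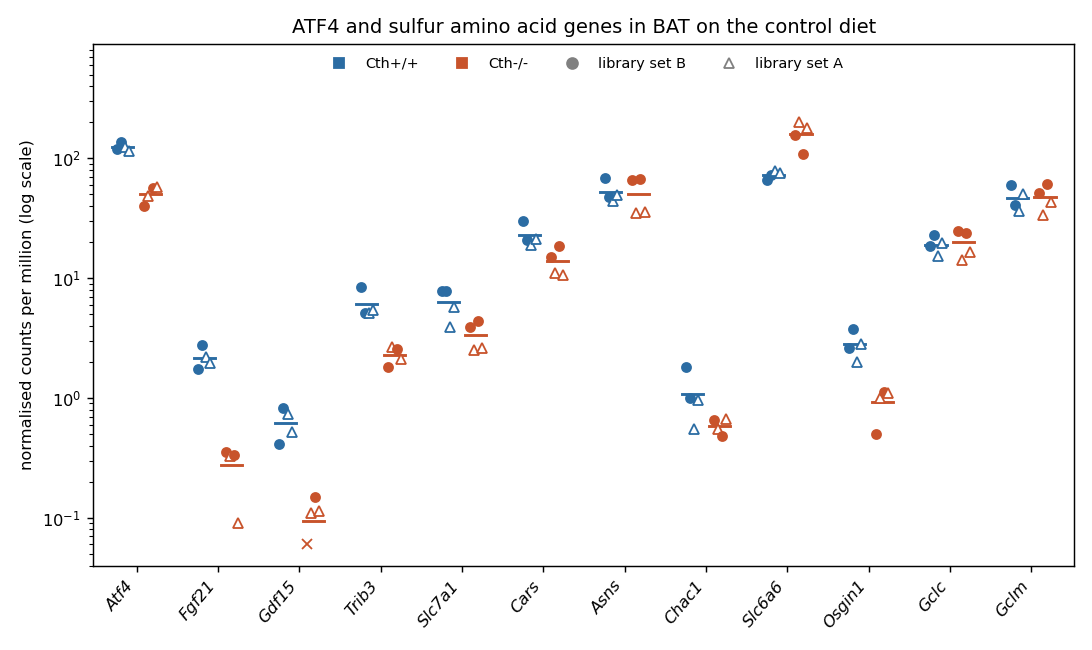
Levels of 12 genes of the ATF4 response, sulfur amino acid and glutathione metabolism in the 8 BAT libraries, as TMM-scaled CPM on a log axis, drawn as in the plot of clock genes; the cross marks 1 Cth-/- library with 0 reads of Gdf15. Atf4, Fgf21, Gdf15, Trib3 and Osgin1 lie lower and Slc6a6 higher in Cth-/- without overlap, while Asns, Gclc and Gclm overlap.

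The start of Fgf21 holds the element that ATF4 binds with its partners, the CARE, searched as TGATGNAA on both strands, as well as an E-box. It is shown because Fgf21 had the largest fall of the list. The stretch is chr7:45615505-45615659, minus strand, with the CARE, read on the opposite strand, from -139 and the E-box from -50, both in capitals.
Fgf21: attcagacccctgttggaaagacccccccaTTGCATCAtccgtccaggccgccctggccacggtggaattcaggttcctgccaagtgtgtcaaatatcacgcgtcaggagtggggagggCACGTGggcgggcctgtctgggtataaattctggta
A CARE was in 3.97% of all windows. It was in the windows of 2 of the 5 called ATF4 list genes that were in the table (Fgf21 and Trib3). Over all genes called, it was in the windows of 9 of the 86 lower genes in the table (10.5%) and of 3 of the 133 higher genes (2.26%), against 2.71% of the 10239 tested genes in the table.

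In the list of transsulfuration, cysteine breakdown and sulfide oxidation, 12 genes were tested and 2 passed: Cth itself, the gene named in the genotype, fell and Slc6a6 rose. Apart from Cth, which defines the groups, Slc6a6 alone passed, against 2.10% of all genes. Slc6a6, the transporter that takes up taurine, the end product of cysteine breakdown, stood at 65.7, 72.9, 78.9 and 75.0 CPM in Cth+/+ and 157, 199.8, 109 and 178 CPM in Cth-/- (a log2 change of 1.14 ± 0.18, adjusted p = 0.00682). Every Cth-/- library was above the Cth+/+ range and the lowest of them was replicate 14. The call held under 17 of 17 alternatives. Mpst, which makes sulfide from a cysteine derivative, did not pass (a log2 change of -0.24 ± 0.16, adjusted p = 0.459), and nor did Csad, an enzyme of taurine synthesis (a log2 change of -0.10 ± 0.19, adjusted p = 0.813).

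None of 43 glutathione genes passed. Gclc and Gclm, the subunits of the enzyme that starts glutathione synthesis, were at 19.1 ± 3.11 and 19.8 ± 5.23 CPM (a log2 change of 0.05 ± 0.21, adjusted p = 0.924) and at 46.8 ± 10.7 and 47.2 ± 11.5 CPM (a log2 change of 0.01 ± 0.20, adjusted p = 0.983). With the library set as a term 4 members fell (Gpx1, Gsta3, Gsta4, Gstz1), against 2.33% of all genes. Of 26 targets of NRF2, the factor that answers oxidative stress, 1 fell, against 0.805% of all genes, and none rose. That gene was Osgin1, at 2.61, 3.77, 2.00 and 2.81 CPM in Cth+/+ and 0.503, 0.992, 1.12 and 1.10 CPM in Cth-/- (a log2 change of -1.56 ± 0.33, adjusted p = 0.0258), which kept its call under 12 of 17 alternatives and lost it without Cth+/+ replicate 1, 2 or 4 or Cth-/- replicate 13 or 15 (adjusted p up to 0.0802). Nqo1, the classical NRF2 target, was at 1.81 ± 0.562 and 1.22 ± 0.237 CPM (a log2 change of -0.59 ± 0.28, adjusted p = 0.288). Of 24 cystine and amino acid transporters Slc7a1 alone passed, against 2.10% of all genes. Slc7a11, the cystine importer, was scattered over both genotypes, at 1.44, 0.438, 0.146 and 0.376 and 0.402, 0.0551, 1.94 and 0.0913 CPM (a log2 change of -0.01 ± 0.81, adjusted p = 0.995). No gene passed among 19 of the methionine cycle and 20 of iron-sulfur cluster assembly.

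Of 32 genes of the heat-producing program 2 rose (Slc27a2 and Nrg4), against 1.29% of all genes, and none fell, with a median of 0.22. Ucp1 stood at 1848, 1376, 1928 and 2394 CPM in Cth+/+ and 1638, 2625, 1414 and 2679 CPM in Cth-/-, and the groups overlapped (a log2 change of 0.15 ± 0.22, adjusted p = 0.762). In Cth-/- the set A libraries (replicates 13 and 15) held more Ucp1 than the set B libraries. Dio2, which activates thyroid hormone, spread widely in both genotypes, at 18.6, 14.8, 53.4 and 81.5 and 21.3, 48.5, 74.6 and 199 CPM (a log2 change of 1.03 ± 0.77, adjusted p = 0.512), and Ppargc1a, a coactivator of mitochondrial genes, did not pass (a log2 change of 0.41 ± 0.53, adjusted p = 0.720).

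Slc27a2, which imports fatty acids and links them to coenzyme A, rose from 24.3, 24.8, 34.4 and 39.9 CPM to 44.0, 118, 50.4 and 149 CPM (a log2 change of 1.55 ± 0.33, adjusted p = 0.0278). Both genotypes had higher Slc27a2 in set A, and the log2 change was 1.83 within set A and 0.94 within set B. Slc27a2 did not pass the test between the sets (adjusted p = 0.246), and whether its genotype change differs between them was not tested. Nrg4, a secreted factor of brown fat, rose from 44.4, 44.1, 46.3 and 48.2 CPM to 75.6, 80.6, 64.0 and 87.1 CPM (a log2 change of 0.75 ± 0.16, adjusted p = 0.0309), with all Cth-/- libraries above the Cth+/+ range. Their calls held under 10 of 17 and 11 of 17 alternatives, and both were lost without any 1 Cth+/+ library or without Cth-/- replicate 13 or 15 (adjusted p up to 0.101 and 0.0996). Of 23 adipokine and white fat genes, Cidec and Nrg4 rose and Rbp4 fell, against 1.29% of all genes higher and 0.805% lower. Rbp4, the retinol carrier, fell from 45.5 ± 5.26 to 24.1 ± 4.99 CPM (SD, n = 4, a log2 change of -0.92 ± 0.18, adjusted p = 0.0230). The hormone genes Lep (a log2 change of -1.19 ± 0.52, adjusted p = 0.234) and Adipoq (a log2 change of 0.19 ± 0.14, adjusted p = 0.521) did not pass. The Rbp4 call was lost without Cth+/+ replicate 1, 2 or 4 or Cth-/- replicate 13 or 15 (adjusted p up to 0.0764).

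Among 27 genes of lipolysis and lipid droplets 2 rose and 2 fell, against 1.29% of all genes higher and 0.805% lower, and the median was 0.06. Cidec, which fuses droplets, rose from 174, 164, 167 and 180.0 CPM to 231, 411, 239 and 373 CPM (a log2 change of 0.87 ± 0.17, adjusted p = 0.0201), again with the Cth-/- libraries of set A highest. It did not pass the test between the sets (adjusted p = 0.530). Pde3b, through which insulin restrains lipolysis, rose from 153 ± 11.0 to 239 ± 38.9 CPM (a log2 change of 0.64 ± 0.15, adjusted p = 0.0386). G0s2, an inhibitor of the lipase ATGL, fell from 104, 136, 186 and 167 CPM to 75.0, 59.9, 85.7 and 58.0 CPM (a log2 change of -1.09 ± 0.23, adjusted p = 0.0258), and Plin2, a droplet coat protein, fell from 1350.0, 1022, 1264 and 1394 CPM to 786, 585, 878 and 651 CPM (a log2 change of -0.79 ± 0.19, adjusted p = 0.0386). In each of these genes the genotypes did not overlap. Pnpla2, which encodes ATGL, was at 1250.4 ± 86.7 and 1542 ± 114 CPM and did not pass (a log2 change of 0.30 ± 0.13, adjusted p = 0.227). These 4 calls held under 10 to 12 of 17 alternatives, and each was lost without Cth+/+ replicate 2, 3 or 4 or Cth-/- replicate 13 or 15 (adjusted p up to 0.0752 for Cidec, 0.130 for Pde3b, 0.0939 for G0s2 and 0.127 for Plin2). All but G0s2 were also lost without Cth+/+ replicate 1.

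Lipid synthesis and oxidation changed in single genes, to be read beside the 2.10% of all genes that passed. Gpat4, which starts triglyceride assembly, rose from 73.7, 64.9, 90.2 and 104 CPM to 122, 222, 138 and 267 CPM (a log2 change of 1.17 ± 0.22, adjusted p = 0.0201), the 1 of 14 genes of its list that passed. Abca1, which exports cholesterol, rose from 89.9 ± 10.9 to 154 ± 23.9 CPM (a log2 change of 0.78 ± 0.18, adjusted p = 0.0376), the 1 of 26 cholesterol genes that passed, while the median of that list was -0.40. None of 21 fatty acid synthesis genes passed. With the library set as a term 1 fell (Scd2), against 2.33% of all genes. Fasn was at 25674 ± 3619 and 25933 ± 3023 CPM (a log2 change of 0.01 ± 0.17, adjusted p = 0.973) and Scd1 at 61071 ± 12323 and 39698 ± 12464 CPM (a log2 change of -0.62 ± 0.28, adjusted p = 0.253). Cpt1a, which admits fatty acids to the mitochondria, did not pass (a log2 change of -0.12 ± 0.17, adjusted p = 0.750), and Slc27a2 was the 1 of 42 fatty acid uptake and oxidation genes that did. Gpat4 kept its call under 12 of 17 alternatives and lost it without Cth+/+ replicate 1 or 2 or Cth-/- replicate 13 or 15 (adjusted p up to 0.0758). Abca1 kept it under 9 of 17, and of the 8 libraries only leaving out Cth-/- replicate 12 left its call in place (adjusted p up to 0.122).

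Coenzyme A contains a unit made from cysteine. Of 13 genes of its synthesis and transport 2 rose, against 1.29% of all genes, and none fell, with a median of 0.19. Slc25a42, which carries coenzyme A into mitochondria, rose from 23.5, 28.7, 45.2 and 38.7 CPM to 63.9, 117, 45.6 and 85.5 CPM (a log2 change of 1.20 ± 0.24, adjusted p = 0.0230), with Cth-/- replicate 14 hardly above Cth+/+ replicate 3. Slc5a6, which imports the vitamin from which coenzyme A is built, rose from 6.14, 4.73, 7.64 and 6.62 CPM to 8.80, 13.1, 12.3 and 15.8 CPM (a log2 change of 0.99 ± 0.19, adjusted p = 0.0201). Both calls were lost without Cth+/+ replicate 1, 2 or 4 or Cth-/- replicate 13 or 15 (adjusted p up to 0.0764 and 0.0677). Pank1 and Pank2, kinases of the first step, passed as well once the library set was a term.

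Of 20 genes known to answer glucocorticoids and fasting, 2 rose (Klf15 and Mt2), against 1.29% of all genes, and none fell, and the median was 0.43. Klf15, a transcription factor of amino acid and lipid use, rose from 5.14, 3.85, 3.39 and 4.69 CPM to 10.4, 12.2, 11.4 and 10.7 CPM (a log2 change of 1.38 ± 0.21, adjusted p = 0.00682) and kept its call under 17 of 17 alternatives. Mt2, a small metal-binding protein rich in cysteine, rose from 6.31, 2.76, 3.57 and 3.70 CPM to 13.9, 10.3, 35.8 and 16.6 CPM (a log2 change of 2.22 ± 0.41, adjusted p = 0.0195). Cth-/- replicate 14 held the most Mt2, more than its group neighbours, and the call was lost without Cth+/+ replicate 2, 3 or 4 (adjusted p up to 0.0628). Metallothionein genes resemble one another, so the division of reads among them is uncertain. Of 16 xenobiotic genes 3 rose (Cyp2e1, Por, Ahr), against the same 1.29%. Cyp2e1, a cytochrome P450, rose from 13.8, 15.1, 12.3 and 8.45 CPM to 22.9, 80.6, 27.2 and 56.5 CPM (a log2 change of 1.92 ± 0.41, adjusted p = 0.0278). The log2 change was 2.72 within set A and 0.79 within set B, while the test between the sets did not pass (adjusted p = 0.998). Por, the electron donor of these enzymes, rose by 0.65 ± 0.15 (adjusted p = 0.0378) and Ahr, a receptor for foreign compounds, by 0.70 ± 0.16 (adjusted p = 0.0386) on the log2 scale. Cyp2b10 did not pass (a log2 change of -0.23 ± 0.42, adjusted p = 0.815). Cyp2e1 lost its call without any 1 Cth+/+ library or without Cth-/- replicate 13 or 15 (adjusted p up to 0.102), Ahr without Cth+/+ replicate 1, 2 or 4 or Cth-/- replicate 13 or 15 (up to 0.135), and Por without any single library (up to 0.0996).

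Among genes called with a mean of at least 1 CPM, the largest rise was in Slc4a4, a cotransporter of sodium and bicarbonate. It stood at 25.9, 30.7, 44.6 and 50.2 CPM in Cth+/+ and 78.4, 369, 121 and 371 CPM in Cth-/- (a log2 change of 2.63 ± 0.44, adjusted p = 0.0114). Cth-/- replicates 13 and 15, the set A libraries, were far above replicates 12 and 14, and even the lowest of the 4 exceeded every Cth+/+ library. Within set A the log2 change was 2.95 and within set B 1.81, while the test between the sets did not pass (adjusted p = 0.481). The genotype call was lost only without Cth+/+ replicate 1 (adjusted p = 0.0504). Mttp, which loads lipid onto lipoproteins, rose from 2.37, 2.63, 3.39 and 2.95 CPM to 4.62, 7.36, 4.62 and 9.45 CPM (a log2 change of 1.21 ± 0.20, adjusted p = 0.0114) and likewise lost its call only without Cth+/+ replicate 1 (adjusted p = 0.0504). Nxnl1, a thioredoxin-like protein, rose from 0.468 ± 0.165 to 1.61 ± 0.699 CPM (a log2 change of 1.78 ± 0.33, adjusted p = 0.0195), and Chrnb2, a nicotinic acetylcholine receptor subunit, from 1.74 ± 0.397 to 4.15 ± 2.03 CPM (a log2 change of 1.26 ± 0.29, adjusted p = 0.0370). The calls of Nxnl1 (up to 0.0704) and Chrnb2 (up to 0.126) were lost without Cth+/+ replicate 1, 2 or 3 or Cth-/- replicate 13 or 15, and that of Chrnb2 also without Cth+/+ replicate 4.

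Among the largest falls, Dusp8, a phosphatase of MAP kinases, stood at 7.58, 8.76, 5.82 and 9.26 CPM in Cth+/+ and 0.603, 1.21, 1.53 and 2.33 CPM in Cth-/-, 5.34-fold lower (a log2 change of -2.42 ± 0.39, adjusted p = 0.00941). Tubb2a, a beta-tubulin, stood at 85.9, 63.8, 50.9 and 48.1 CPM and 14.7, 5.90, 20.9 and 7.96 CPM in the same order (a log2 change of -2.34 ± 0.36, adjusted p = 0.00682). No Cth-/- library came near the Cth+/+ range of either gene, and both calls held under 17 of 17 alternatives. The neighbouring gene Tubb2b fell from 3.16 ± 1.20 to 0.934 ± 0.683 CPM (a log2 change of -1.79 ± 0.42, adjusted p = 0.0386). The coding sequences of both tubulins are nearly alike, so the division of expected counts between them is uncertain. The Tubb2b call was lost without any library except Cth-/- replicate 14 (adjusted p up to 0.130).

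Oxtr, the oxytocin receptor, fell from 3.36, 2.23, 1.67 and 1.79 CPM to 0.754, 0.579, 0.372 and 1.07 CPM (a log2 change of -1.68 ± 0.34, adjusted p = 0.0238), and lost its call without Cth+/+ replicate 1 or 2 or Cth-/- replicate 13 (adjusted p up to 0.0834). Tmc7, a transmembrane channel-like protein, fell from 3.51 ± 0.842 to 1.28 ± 0.198 CPM (a log2 change of -1.44 ± 0.21, adjusted p = 0.00532), and BC034090 from 6.15 ± 1.27 to 2.10 ± 0.655 CPM (a log2 change of -1.55 ± 0.23, adjusted p = 0.00659); both kept their calls under 17 of 17 alternatives. Bsn, a scaffold of nerve endings, fell by 4.01-fold (adjusted p = 0.0411), Lrtm1 by 3.46-fold (adjusted p = 0.0247), Rab11fip4, an effector of RAB11, by 3.15-fold (adjusted p = 0.0238), Prune2 by 3.12-fold (adjusted p = 0.0253) and Recql4, a DNA helicase, by 2.65-fold (adjusted p = 0.0418). In these 5 genes every Cth-/- library was below every Cth+/+ library, and each call was lost without Cth+/+ replicate 1 or 2 or Cth-/- replicate 13 or 15 and held under 9 to 11 of 17 alternatives. The highest adjusted p without 1 library was 0.131 for Bsn, 0.0855 for Lrtm1, 0.0855 for Rab11fip4, 0.0835 for Prune2 and 0.132 for Recql4.

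Counted over all 305 genes, 24 passed under every one of the 17 alternatives. Besides those described above they include 4 genes singled out after their values were seen. Ifrd1, a transcriptional regulator, fell from 68.4, 60.7, 57.9 and 64.7 CPM to 28.4, 16.3, 30.0 and 27.5 CPM (a log2 change of -1.30 ± 0.16, adjusted p = 0.00197), Dtx4, a ubiquitin ligase of the Notch pathway, from 22.6 ± 3.03 to 9.06 ± 1.17 CPM (a log2 change of -1.32 ± 0.19, adjusted p = 0.00532), and Yap1, the effector of Hippo signalling, from 67.5 ± 6.05 to 35.3 ± 2.99 CPM (a log2 change of -0.94 ± 0.15, adjusted p = 0.00751). Stat5a, which carries growth hormone and prolactin signals, rose from 27.0, 27.8, 30.4 and 29.4 CPM to 41.2, 46.7, 41.9 and 45.1 CPM (a log2 change of 0.61 ± 0.09, adjusted p = 0.00532). The spread within each genotype was small in Stat5a, and the groups did not overlap. Against a threshold of 0.5 on the log2 scale, instead of 0, 6 genes passed: Cth, Fgf21, Tubb2a, Ifrd1, Cry1 and Dbp.

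The remaining lists held few calls or none. Of 78 nuclear genes of oxidative phosphorylation none passed, although 76 lay below 0 and the median was -0.28. Once the library set was a term 10 of them fell, against 2.33% of all genes. The 13 transcripts of mitochondrial DNA had a median of 0.55 and no call, and their share of counts was highest in Cth-/- replicate 12. No gene passed among 22 chaperone and unfolded protein response genes, 28 interferon genes, 20 proliferation genes, 16 imprinted genes and 11 genes of the futile cycles. Once the library set was a term, 2 chaperone genes (Canx, Hsp90b1) and 1 imprinted gene (Zim1) rose, against 2.77% of all genes. Of 38 matrix genes only Lama4, a laminin chain, passed, against 2.10% of all genes, and it fell (a log2 change of -0.43 ± 0.11, adjusted p = 0.0439). Col1a1 did not pass (a log2 change of 0.03 ± 0.32, adjusted p = 0.975). The Lama4 call was lost without any library except Cth-/- replicate 14 (adjusted p up to 0.141).

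No marker of another cell type passed in the main fit. With the library set as a term 1 of 11 smooth muscle and pericyte markers (Abcc9) and 1 of 13 brown adipocyte markers (Kcnk3) rose, against 2.77% of all genes. The 20 skeletal muscle markers all lay below 0 with a median of -1.04. With the mean level of these markers as a covariate 187 genes were called (122 higher and 65 lower), 175 of them among the 305, and of the genes named here Per3, Nr1d1, Slc7a1, Cars, Pde3b, Plin2, Abca1, Ahr, Por, Prune2, Tubb2b and Lama4 lost their calls. Markers of fibroblasts, endothelium, smooth muscle and macrophages had medians of 0.06, 0.10, 0.10 and 0.08, and their summed levels overlapped between the genotypes. Blood markers had a median of -0.23. Of 12 B cell markers 4 were tested, of 14 T and NK cell markers 2, and of 14 nerve markers 8 (Dbh was at 0). None of 11 epithelial markers was tested and Epcam was at 0.

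**Figure D4:**
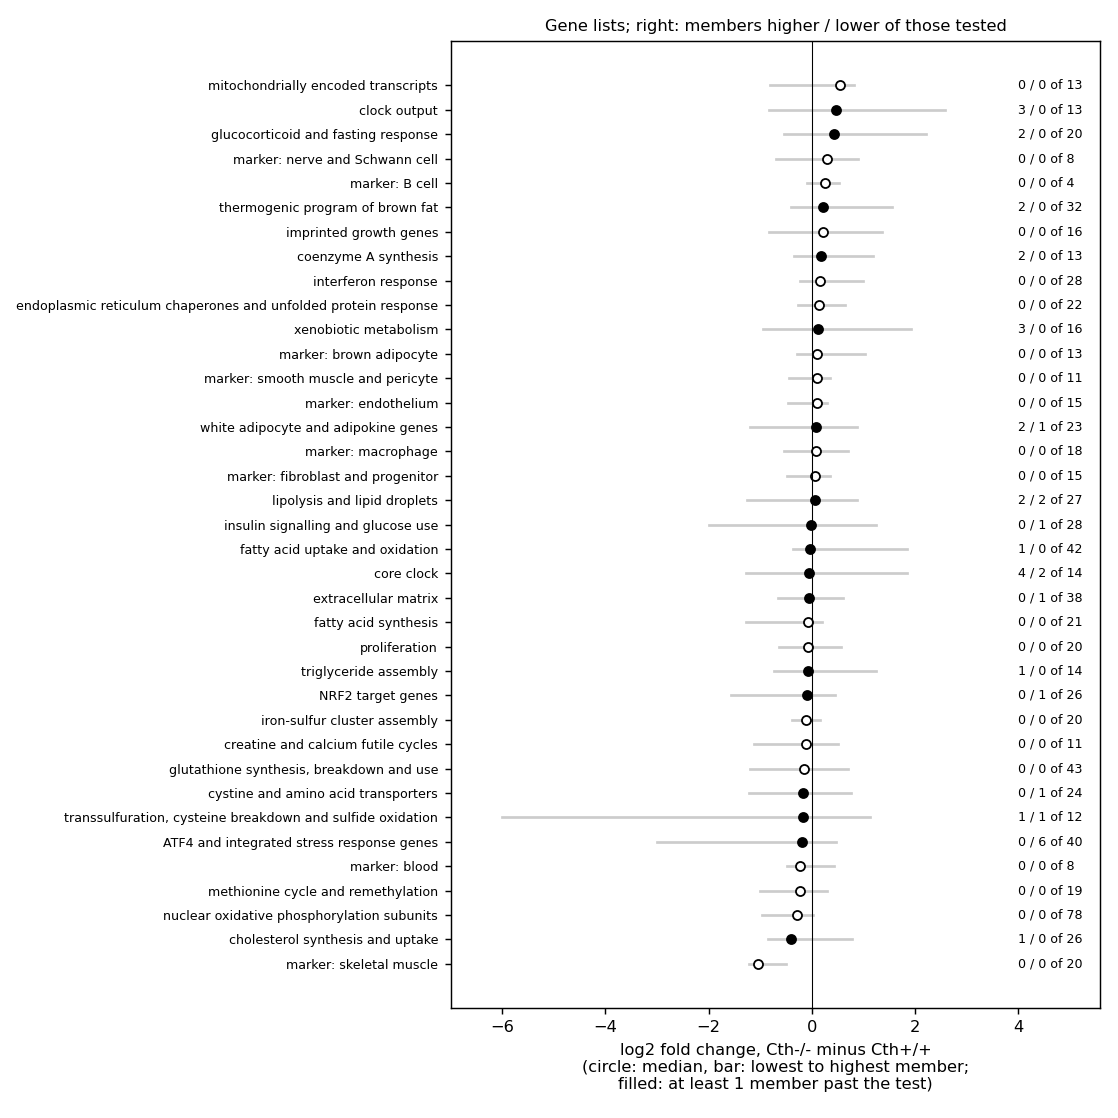
Gene lists with at least 3 tested members in order of the median log2 fold change of their tested members (circle, filled where at least 1 member passed the test), with a bar from the lowest to the highest member. The figures at the right are members higher and lower of those tested: 4 and 2 of 14 in the core clock, 3 and 0 of 13 in clock output, and 0 and 6 of 40 in the ATF4 list, while the skeletal muscle markers have the lowest median, -1.04, with no call.

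The genotypes were also compared in libraries other than these 8, which need not be independent of them. The SFAT and EFAT libraries on the control diet carry the same replicate numbers as these 8. The labels do not say whether same-numbered libraries came from the same animals, which would then share the hour of collection. The cystine-free contrast came from the fit that gave the control diet calls, and shares its estimate of the spread. The shared genes below are therefore not a fully separate test. On the cystine-free diet, in 8 other BAT libraries, 4589 genes passed (31.6%). Of the 305 genes, 250 passed there in the same direction, 82.0% of the control diet list and 5.45% of the other, 3 passed in the opposite direction, and 291 had the same sign. In SFAT on the control diet 17 genes passed (0.103%), of which 13 were shared with BAT, and in EFAT 8 genes (0.0464%), of which 7 were shared. The shared genes made up 4.26 and 2.30% of the BAT list and 76.5 and 87.5% of the white fat lists. The 7 genes called in all 3 depots were Cth, the clock genes Arntl, Cry1, Dbp and Tef, and Dtx4 and Osgin1.

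The values of 3 of these genes are given side by side. The log2 fold change of Dbp was 2.58 ± 0.30 in BAT, 2.45 ± 0.18 (adjusted p = 2.78e-06) in SFAT and 2.03 ± 0.29 (adjusted p = 0.0184) in EFAT. That of Arntl was -1.28 ± 0.24, -1.30 ± 0.17 (adjusted p = 0.00252) and -1.44 ± 0.11 (adjusted p = 2.57e-05), and that of Osgin1 -1.56 ± 0.33, -1.53 ± 0.18 (adjusted p = 7.65e-04) and -1.45 ± 0.20 (adjusted p = 0.0149). The value of Atf4 was -1.29 ± 0.18 in BAT, -0.18 ± 0.11 (adjusted p = 0.513) in SFAT and -0.16 ± 0.14 (adjusted p = 0.918) in EFAT, and the difference between depots itself passed, at -1.15 ± 0.21 (adjusted p = 0.0222) against SFAT and -1.17 ± 0.21 (adjusted p = 0.0156) against EFAT. Over the 18348 genes tested in all depots 5 passed the difference against SFAT (0.0273%) and 3 that against EFAT (0.0164%). The Atf4 difference from SFAT lost its call without Cth+/+ replicate 2 or Cth-/- replicate 12 or 13 (adjusted p up to 0.0891), and that from EFAT without Cth-/- replicate 12 (adjusted p = 0.0636). For Fgf21 the difference was -2.38 ± 0.89 (adjusted p = 0.546) and -2.84 ± 0.89 (adjusted p = 0.306), for Gdf15 -3.03 ± 1.00 (adjusted p = 0.446) and -2.35 ± 0.95 (adjusted p = 0.488), and for Trib3 -1.46 ± 0.45 (adjusted p = 0.414) and -1.73 ± 0.45 (adjusted p = 0.145), so a depot difference was not shown for these 3 genes.

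Apart from Zufsp, which was not called in BAT itself (a log2 change of -0.48 ± 0.15, adjusted p = 0.103) and differed by -0.75 ± 0.15 (adjusted p = 0.0418) from SFAT, the other genes past a depot difference were Pacsin2, a membrane-shaping protein, Ccdc69, Tlr5, the receptor for flagellin, and Smarcd1, a chromatin remodelling subunit. Pacsin2 fell in BAT (a log2 change of -0.51 ± 0.10, adjusted p = 0.0253) and differed by -0.64 ± 0.10 (adjusted p = 0.00558) from SFAT and -0.69 ± 0.10 (adjusted p = 0.00119) from EFAT. Ccdc69 rose in BAT (a log2 change of 0.67 ± 0.14, adjusted p = 0.0253) and differed by 0.91 ± 0.18 (adjusted p = 0.0418) from SFAT, and Tlr5 fell (a log2 change of -1.31 ± 0.25, adjusted p = 0.0195) and differed by -1.68 ± 0.32 (adjusted p = 0.0418) from SFAT. Smarcd1 rose (a log2 change of 0.65 ± 0.13, adjusted p = 0.0232) and differed by 0.77 ± 0.15 (adjusted p = 0.0296) from EFAT. In BAT the 4 calls were lost without Cth+/+ replicate 1 or Cth-/- replicate 13 or 15, those of Pacsin2, Ccdc69 and Tlr5 also without Cth+/+ replicate 2, those of Ccdc69 and Smarcd1 without Cth+/+ replicate 3, and that of Smarcd1 without Cth+/+ replicate 4 (adjusted p up to 0.0906, 0.0837, 0.0655 and 0.0802 for Pacsin2, Ccdc69, Tlr5 and Smarcd1). Under 14 alternatives the depot difference of Pacsin2 held in 13 (SFAT, lost with only the 24 control diet libraries, adjusted p = 0.131) and 14 (EFAT). Those of Ccdc69 (5 of 14, adjusted p up to 0.243), Tlr5 (7 of 14, up to 0.159) and Smarcd1 (7 of 14, up to 0.113) were each lost without Cth+/+ replicate 1 or Cth-/- replicate 13 or 15. Ccdc69 and Tlr5 also lost theirs without Cth+/+ replicate 2 or Cth-/- replicate 12, Ccdc69 and Smarcd1 without Cth+/+ replicate 3, and Smarcd1 without Cth+/+ replicate 4.

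The genotype effect was also set beside that on the cystine-free diet, with the difference tested as the interaction of genotype and diet (932 of 14528 genes, 6.42%). Trib3 changed by -1.40 ± 0.30 on the control diet and stood at 0.47 ± 0.29 (adjusted p = 0.242) on the cystine-free diet, and its interaction passed, at 1.87 ± 0.42 (adjusted p = 0.0164). Cry1 changed by -1.22 ± 0.13 on the control diet and by -0.47 ± 0.13 (adjusted p = 0.0125) on the cystine-free diet, with an interaction of 0.75 ± 0.19 (adjusted p = 0.0259) that lost its call without Cth+/+ replicate 4 (adjusted p = 0.0568). Both effects on Cry1 were thus in 1 direction, with the larger on the control diet. Fgf21 fell on both diets, with changes of -3.01 ± 0.43 and -1.99 ± 0.44 (adjusted p = 0.00274), and so did Atf4, with changes of -1.29 ± 0.18 and -0.63 ± 0.18 (adjusted p = 0.0146). Their interactions did not pass (adjusted p = 0.362 and 0.141). Slc6a6 rose on both diets, by 1.14 ± 0.18 and 1.18 ± 0.18 (adjusted p = 1.60e-04), with an interaction of 0.04 (adjusted p = 0.944). Prune2 and Lrtm1 fell further on the cystine-free diet, to -4.70 and -4.30, with interactions of -3.06 ± 0.51 (adjusted p = 0.00315) and -2.51 ± 0.58 (adjusted p = 0.0203). With the muscle markers as a covariate the interactions of Trib3 (adjusted p = 0.0594) and Lrtm1 (adjusted p = 0.0896) lost their calls, as did that of Ahr. The interaction and the depot differences use the 8 control diet libraries of the comparison itself.

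**Figure D5:**
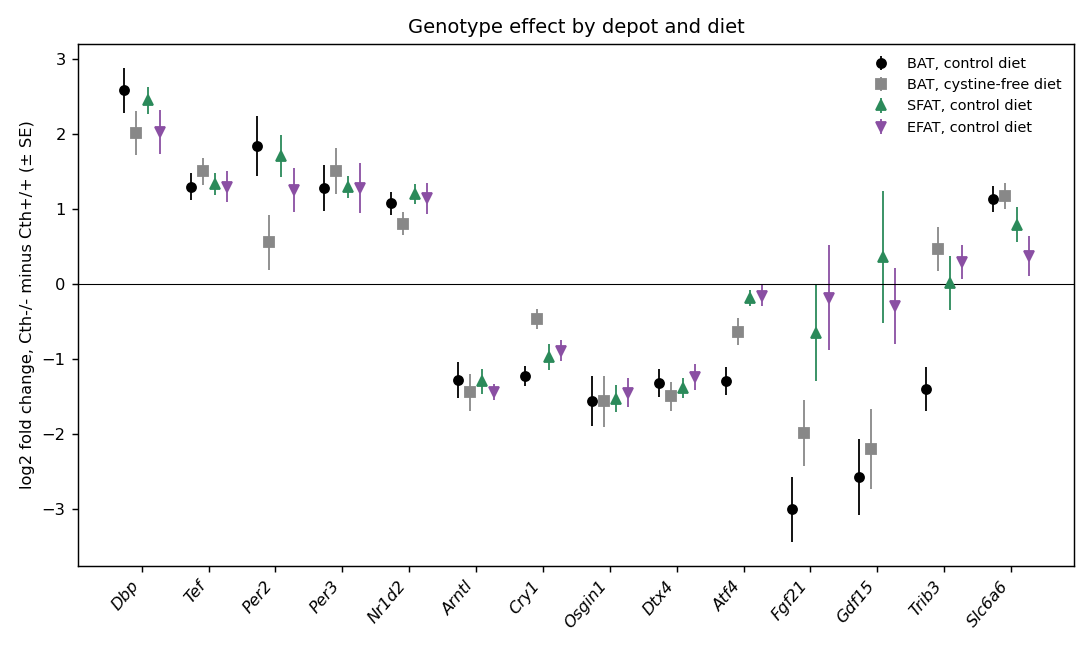
Log2 fold change of Cth-/- over Cth+/+ with its SE for 14 genes, in BAT on the control diet (black circles), BAT on the cystine-free diet (grey squares), SFAT (green) and EFAT (purple) on the control diet. Dbp, Tef, Arntl, Osgin1 and Dtx4 lie on the same side of 0 in all 4 settings, whereas Atf4 is at -1.29 in BAT but -0.18 and -0.16 in the white depots on the control diet.

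Genes were also counted by their distance from Cth. Within 5 Mb of Cth none of 19 genes tested passed, and within 20 Mb 2 of 78 did (2.56%, against 2.10% overall): Adgrl4, 6.49 Mb below Cth, and Mttp, 19.8 Mb below it. On chromosome 3 as a whole 16 of 767 genes passed (2.09%). Over the autosomes and X the share ran from 0.412% on X, with 2 of 486 genes, to 3.43% on chromosome 7, with 39 of 1138.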

How the data were processed

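RNA of BAT, SFAT and EFAT was sequenced from poly(A) libraries, per the labels' protocols. The authors deposited expected counts per gene. Per the submitters' processing notes the tools were FastQC, STAR, Picard and RSEM with mm10; versions and strand setting: not given in the sources used here. The deposited expected counts were rounded to whole numbers (5.31 to 8.16% of values were not whole), so reads shared by similar genes were divided by the authors' estimate. Coordinates are those of GRCm38.

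Genes were kept by filterByExpr (minimum count 10, minimum total 15), scaled by TMM and fitted in edgeR 4.0.16 (R 4.3.3) with the quasi-likelihood test over the 16 BAT libraries in 4 groups, so that all groups share 1 estimate of the spread. The Cth-/- minus Cth+/+ contrast on the control diet was tested, and p-values were adjusted by Benjamini-Hochberg over all 14528 genes, with a threshold of 0.05. Differences between depots came from 1 fit of all 48 libraries in 12 groups and are therefore not exact subtractions of the fits by depot. The fit was also run on simulated counts that held no difference between the library sets. That run therefore does not cover the set difference seen in these libraries. Genes named are the 15 largest rises and falls with a mean of at least 1 CPM, up to 4 per list, those past a depot or diet difference, and a few chosen after their values were seen; some items are not reported here. The members and the 39 lists were chosen with earlier results of these data known. Alternatives were RLE scaling, no filter, robust dispersion, DESeq2 1.42.0, covariates, sample choices and leaving out each library. Total counts of 23093070 to 37345043 set the precision; 14624 of 47729 genes had 0 reads in every library. RefSeq promoter windows were matched by symbol for 10239 of 14516 tested symbols. Same-numbered libraries of different depots did not deviate together in every pair, and the numbers were not used as pairs in the main fit. This does not show that they came from different animals.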

Additional observations from a re-analysis of the deposited data

Results flagged for a closer look

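In 3 genes a Cth+/+ library stood apart from the other 3 of its group, and in each it was replicate 1. Trib3 was at 8.50 CPM there, against 5.12 to 5.44 CPM in the others. Tef was at 23.7 CPM against 40.4 to 41.1 CPM, and Usp2 at 4.56 CPM against 5.44 to 5.61 CPM. Among the Cth-/- libraries, replicate 15 held 0.0913 CPM of Fgf21 against 0.331 to 0.352 CPM in the other 3. The gap to the nearest library exceeded Dixon's 95% critical share of the group's range in these 4 of 114 groups (57 genes), and chance alone gives about 1 in 20.

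The genotype effect of several genes called in BAT on the control diet differed from that in another depot. The difference from SFAT was -1.15 for Atf4, -0.64 for Pacsin2, 0.91 for Ccdc69 and -1.68 for Tlr5 on the log2 scale. The difference from EFAT was -1.17 for Atf4, -0.69 for Pacsin2 and 0.77 for Smarcd1. Leaving out 1 of the 8 libraries ended the calls of Atf4 (from SFAT without Cth+/+ replicate 2 or Cth-/- replicate 12 or 13, from EFAT without Cth-/- replicate 12), Ccdc69, Tlr5 and Smarcd1, but not those of Pacsin2.

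The genotype effect also differed between the diets in some genes named by the rules, as the effect on the cystine-free diet minus that on the control diet. The interaction was 0.92 for Ahr (0.0285 as the adjusted p), 0.75 for Cry1, 1.14 for Smarcd1 and 1.87 for Trib3. It was -2.51 for Lrtm1 and -3.06 for Prune2. Those of Prune2 and Smarcd1 passed under 15 of 15 alternatives, those of Cry1, Lrtm1 and Trib3 under 14 of 15, and that of Ahr under 10 of 15. Ahr lost its call without Cth+/+ replicate 3 or 4 or Cth-/- replicate 12 or 14, and Cry1 without Cth+/+ replicate 4. With the muscle markers as a covariate Ahr, Lrtm1 and Trib3 lost theirs.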

How the results depend on the processing

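The 305 calls became 818 with DESeq2 1.42.0, 741 with the library set as a term, 187 with the muscle markers as a covariate, 202 with only the 8 libraries compared, 1463 with these 8 and the library set as a term (chosen after seeing the data), 1095 within set A, 1 within set B, 6 against a threshold of 0.5, 21 at an adjusted p under 0.01, 746 at one under 0.1, and 32 to 354 without 1 library. RLE scaling gave 319, no filter 209, robust dispersion 307 and leaving out mitochondrially encoded genes (also chosen later) 305. The interaction count of 932 became 1484 with DESeq2 and 383 with the muscle covariate, and lay between 488 and 858 without 1 library. The difference from SFAT, 5 genes, became 14 with the replicate block, 2 with RLE scaling, 3 without the filter, 40 with DESeq2, 1 with only the 24 control diet libraries and 1 to 12 without 1 library. The difference from EFAT, 3 genes, became 50 with the replicate block, 7 with RLE scaling, 66 with DESeq2, 15 with only the 24 control diet libraries and 2 to 31 without 1 library. The correlation of the deviations of same-numbered libraries exceeded 0.1 in 10 (BAT with SFAT), 6 (BAT with EFAT) and 10 (SFAT with EFAT) of 16 pairs. Such correlations cannot decide whether these libraries came from the same animals. The main fit of the depot differences treated them as unpaired. Cth changed by -7.78 within set B, where its adjusted p was 0.200, and by -7.52 to -5.46 without 1 library; DESeq2 gave it no adjusted p. The share of calls near Cth was 2.56% within 20 Mb and 0% within 5 Mb. The 305 genes called kept their direction under each alternative that could test them. They were called on these same libraries, so this is no separate test of their stability. Some named genes that did not pass and had small changes in the main fit, such as Asns, Slc7a11 and Gclc, changed sign. Higher and lower calls were 188 and 117, and lower calls were the more numerous within set A (534 and 561), with the 8 libraries and the set term (723 and 740), at an adjusted p under 0.01 (8 and 13), against the threshold of 0.5 (1 and 5) and without Cth+/+ replicate 1 (15 and 17). The causes of these shifts were not tested.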
